A study of Mus musculus with 112 samples.

Results

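The 52 mammary tumours described here fell into a Paip1-high group of 16 and a Paip1-low group of 36, out of 56 tumours in the whole series. They were chosen by their value for 1 Paip1 probe set on array A, 1425521_at, which had an empty stretch between its low and its high values. All tumours arose in mice carrying the MMTV-PyMT transgene, in which the mouse mammary tumour virus promoter drives the polyoma middle T antigen mainly in mammary epithelium. The strain background of every tumour was AKXD x PyMT, where AKXD names recombinant inbred sublines whose founders were AKR/J and DBA/2J. Both groups therefore share the transgene, the tissue and the kind of cross, and no untreated or wild type group enters the comparison. Each tumour was hybridised to 2 Affymetrix arrays, MOE430A and MOE430B, here arrays A and B, and all values are log2 expression values. Ages of the mice were not given in the labels.

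The Paip1-high tumours were all 3 tumours of each of sublines 3, 10, 18 and 20, tumours 3 and 4 of subline 2, and tumours 1 and 2 of subline 27. The Paip1-low tumours were all those used from 11 sublines (7, 9, 11, 13, 14, 16, 21, 22, 24, 25 and 28), tumours 1 and 2 of subline 2, and tumour 3 of subline 27. Sublines 2 and 27 thus held tumours of both levels under 1 subline label. Within these sublines the high and low tumours also stood apart in probe sets of H2 genes on chromosome 17, given further on. Whether their subline labels are right was not tested, and every value within sublines rests on those labels. Left out of the split were the 3 tumours of subline 23 and tumour 3 of subline 25. Their median correlation with the other arrays A was 0.222 to 0.948, against 0.970 to 0.991 for the 52 tumours. Array B of tumour 3 of subline 11 was not used either, which left 16 high and 35 low tumours there.

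Paip1 encodes poly(A)-binding protein-interacting protein 1, which binds the poly(A)-binding protein on the tail of an mRNA and the initiation factors eIF4A and eIF3 near its cap. In that way it helps to bring both ends of an mRNA together and promotes translation initiation. Its relatives Paip2 and Paip2b act in the opposite sense, by displacing the poly(A)-binding protein. Deadenylation, the shortening of the tail that the poly(A)-binding protein covers, is the usual first step of mRNA decay. In mouse, Paip1 lies on chromosome 13, and in the RefSeq gene order of assembly GRCm38.p6 there were 0 genes between it and 4833420G17Rik, a gene annotated only by a clone name.

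Here "called" means an adjusted p under 0.05 in a test between tumour groups. The promoters of these adjacent genes are shown because only they had probe sets called across sublines. For Paip1 this was another probe set of the gene that made the split. Each sequence runs 5′ to 3′ on the + strand, from 250 bases before to 50 bases after the annotated start (RefSeq, GRCm38.p6). The Paip1 promoter lies at chr13:119428350-119428649 and that of 4833420G17Rik at chr13:119462509-119462808. Capitals mark matches, on either strand, to the GC box GGGCGG and to TGACG, the core of the cAMP response element, which do not overlap here.
Paip1: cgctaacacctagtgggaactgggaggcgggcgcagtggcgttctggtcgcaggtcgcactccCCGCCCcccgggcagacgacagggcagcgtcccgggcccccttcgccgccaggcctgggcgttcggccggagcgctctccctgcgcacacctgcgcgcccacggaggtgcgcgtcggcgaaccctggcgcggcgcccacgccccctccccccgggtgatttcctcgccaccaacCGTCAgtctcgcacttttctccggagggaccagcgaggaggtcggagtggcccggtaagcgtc
4833420G17Rik: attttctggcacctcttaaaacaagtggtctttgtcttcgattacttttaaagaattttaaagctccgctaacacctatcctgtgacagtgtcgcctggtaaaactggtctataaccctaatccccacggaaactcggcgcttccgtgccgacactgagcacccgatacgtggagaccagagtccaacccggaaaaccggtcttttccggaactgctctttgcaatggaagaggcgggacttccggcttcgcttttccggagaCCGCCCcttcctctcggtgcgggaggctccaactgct
The Paip1 promoter held 1 GC box and 1 TGACG core, with a G+C content of 73.3%. The 4833420G17Rik promoter held 1 GC box and 0 TGACG cores, with a G+C content of 52.3%. Neither held the TATA box TATAAA or the CCAAT box CCAAT. Among 32851 RefSeq promoters of this length, 35.7% held the GC box, 20.8% the TGACG core, 13.6% the TATA box and 37.4% the CCAAT box. The RefSeq table lists a second Paip1 start downstream, which is not printed. None of the expression values below measures these promoters.

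The selecting probe set, 1425521_at, had 5.69 as its lowest, 6.12 as its median and 6.65 as its highest value in the 16 Paip1-high tumours, against 4.15, 4.38 and 4.64 in the 36 Paip1-low tumours. Between the highest low tumour (subline 25 tumour 1) and the lowest high tumour (subline 20 tumour 2) lay a gap of 1.05 log2 units with no tumour. These values made the groups, so no test is given for them. Subline means were 6.002 in subline 20 to 6.30 in subline 3 on the high side, and 4.33 to 4.46 on the low side. The pooled SD of single tumours within sublines was 0.245 among high tumours and 0.128 among low tumours. The SD of the subline means was 0.118 and 0.0519 on these sides. Means over tumours vary less than single tumours, so these SDs cannot be compared directly. The low values stood no higher than bacterial control probe sets without target, whose median per tumour on array A was 4.54 to 4.78 in high tumours and 4.53 to 4.97 in low tumours.

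The 3 other Paip1 probe sets did not behave alike. On array B, which took no part in the split, 1441955_s_at had 5.49, 5.73 and 6.16 as its lowest, median and highest value in 16 high tumours, against 4.53, 4.86 and 5.05 in 35 low tumours. The groups did not overlap, and its widest gap put all 51 tumours on the same side as array A. Averaged over 6 high and 13 low subline values, it stood at 5.78 ± 0.09 against 4.85 ± 0.10 (SD), a difference of 0.94 (95% interval 0.84 to 1.03) and a fold of 1.91. limma gave an adjusted p of 2.79e-11. As a probe set of the gene that made the split, it measures the same gene again in the same tumours on a second array, and its p does not support the split independently.

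The brightest Paip1 probe set, 1451740_at on array A, had 8.98, 9.42 and 9.81 as its lowest, median and highest value in high tumours, against 8.79, 9.16 and 9.77 in low tumours. These groups overlapped widely, with 30 of 36 low tumours inside the range of the high ones. Its subline values averaged 9.44 ± 0.19 against 9.18 ± 0.12 (SD), a difference of 0.26 with an interval of 0.12 to 0.40 and an adjusted p of 0.945 (limma). The last probe set, 1456852_at on array B, averaged 7.40 ± 0.05 in high and 7.46 ± 0.09 in low subline values (SD), a difference of -0.06 with an interval of -0.14 to 0.03 and an adjusted p of 0.9998. Apart from 1425521_at, which made the split, only 1441955_s_at among the Paip1 probe sets separated the tumours by level.

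**Figure D1:**
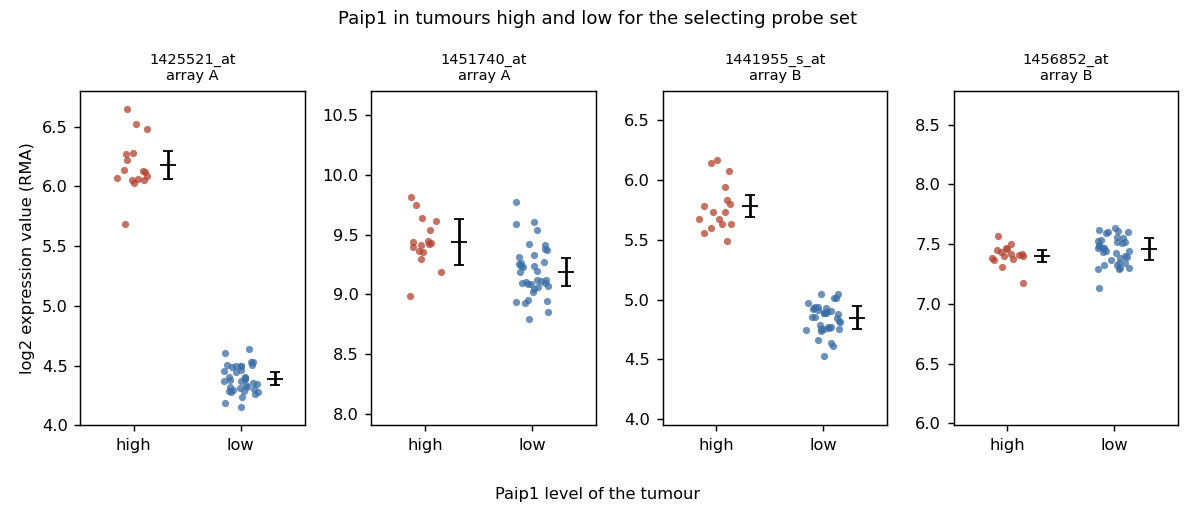
Log2 expression values of 4 Paip1 probe sets, 1 point per tumour, with Paip1-high tumours on the left and Paip1-low tumours on the right of each panel; bars are the mean and SD of the subline values, and every panel spans the same number of log2 units. Probe sets 1425521_at, which made the split, and 1441955_s_at separate the tumours, whereas 1451740_at (9.44 against 9.18) and 1456852_at (7.40 against 7.46) overlap.

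Subline 2 and subline 27, as labelled, allowed the levels to be compared within a subline. In 1441955_s_at the high tumours of subline 2 had 6.08 and 5.595, against 4.75 and 4.90 in its low tumours. The high tumours of subline 27 had 5.73 and 5.83, against 5.02 in its low tumour. With the subline as a block the difference was 0.92 ± 0.13 (SE, 7 tumours), close in size to that across sublines, with an adjusted p of 0.293 (limma).

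Across all other probe sets, 3 of 22625 on array A were called at an adjusted p under 0.05, which is 0.0133%, and all 3 belonged to 4833420G17Rik and were lower in Paip1-high tumours. On array B 2 of 22511 were called, which is 0.00888%: 1441955_s_at of Paip1 itself and 1 probe set of 4833420G17Rik, both higher in Paip1-high tumours. Non-overlapping tumours were found for 0 probe sets on array A (0%) and for 1 on array B (0.00444%), again 1441955_s_at. The median difference over all probe sets was -0.01 on array A and -0.00023 on array B, and the middle 95% of differences spanned -0.12 to 0.13 and -0.08 to 0.09 for these arrays. Half-widths of the 95% intervals had a median of 0.104 on array A and 0.0849 on array B, which sets the precision of a single difference.

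The called array A probe set with the smallest p was 1419637_s_at. It had 9.89, 10.05 and 10.23 as its lowest, median and highest value in high tumours, against 10.17, 10.46 and 10.74 in low tumours. Only 3 low tumours reached into the range of the high ones, and no high subline value (9.96 to 10.09) met a low one (10.29 to 10.55). The difference was -0.40 (95% interval -0.48 to -0.32), a fold of 0.758, with an adjusted p of 1.58e-05 (limma).

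Probe set 1419635_at of the same gene had 7.61, 7.94 and 8.03 in high tumours, against 7.87, 8.44 and 8.77 in low tumours. Among low tumours, tumour 1 of subline 22 was the only one inside the high range. Its difference was -0.53 (-0.64 to -0.42), a fold of 0.693, with an adjusted p of 2.97e-05 (limma). The dimmer 1419636_at had 7.19, 7.40 and 7.57 in high tumours, against 7.43, 7.72 and 8.18 in low tumours, and 7 low tumours lay inside the high range. It differed by -0.36 (-0.45 to -0.27), with an adjusted p of 0.000574 (limma). These 3 probe sets interrogate 1 gene and are not independent of each other.

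On array B the 2 probe sets of 4833420G17Rik were low in value and pointed in opposite directions. Probe set 1430220_at had 5.50, 5.87 and 6.10 in high tumours, against 5.36, 5.61 and 5.92 in low tumours. It was higher in high tumours by 0.25 (0.17 to 0.34), with an adjusted p of 0.0384 (limma), although 26 of 35 low tumours lay inside the high range. This call was lost under 23 of the 33 alternatives that gave it a value, among them the alternative without tumour 2 of subline 20, where the adjusted p was 0.187. Probe set 1431318_at averaged 5.19 ± 0.06 in high and 5.275 ± 0.09 in low subline values (SD), a difference of -0.09 (-0.17 to -0.004) with an adjusted p of 0.9998. Direction for this gene therefore depends on the probe set, with 4 of 5 lower and 1 of 5 higher in Paip1-high tumours.

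**Figure D2:**
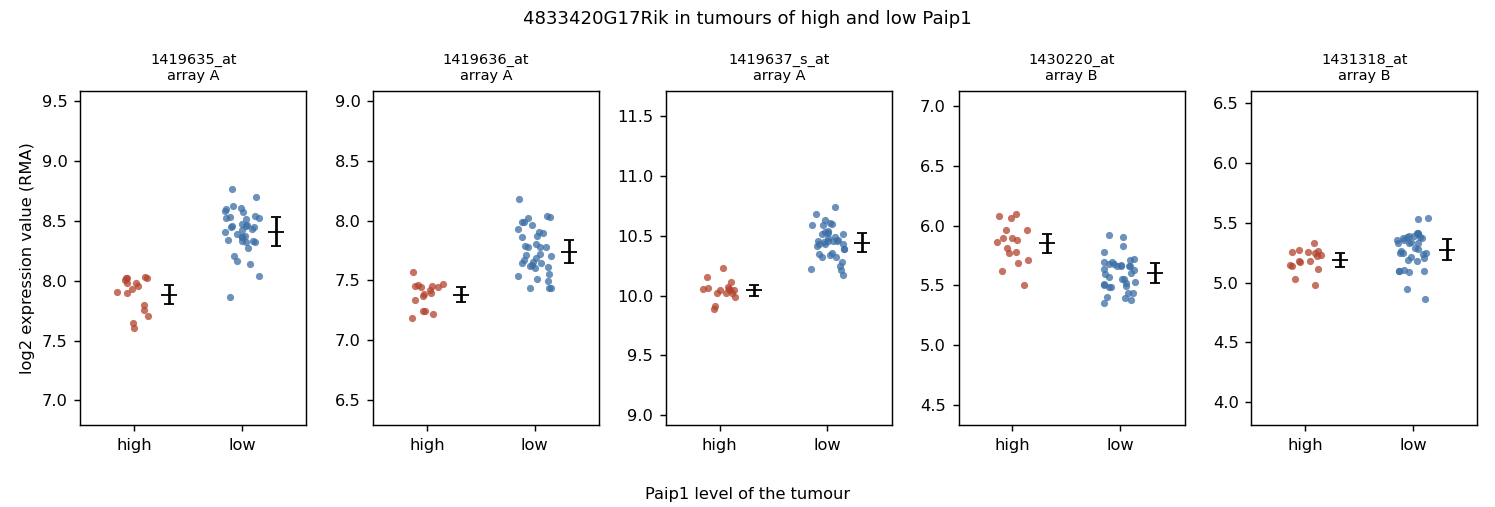
Log2 expression values of the 5 probe sets of 4833420G17Rik, 1 point per tumour, Paip1-high tumours on the left and Paip1-low tumours on the right; bars are the mean and SD of the subline values, and every panel spans the same number of log2 units. The 3 array A probe sets lie lower in high tumours, by 0.53, 0.36 and 0.40 log2 units, and 1430220_at on array B lies higher by 0.25.

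Within sublines 2 and 27 the array A probe sets of 4833420G17Rik kept their direction. Probe set 1419637_s_at had 10.03 and 9.89 in the high tumours of subline 2, against 10.22 and 10.36 in its low tumours. In subline 27 it had 10.02 and 10.11 in the high tumours, against 10.46 in the low tumour. With the subline as a block, 1419635_at differed by -0.50, 1419636_at by -0.29 and 1419637_s_at by -0.36, with an adjusted p of 0.825 each (limma). For 1430220_at the difference within sublines was 0.24, with an adjusted p of 0.9997.

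**Figure D3:**
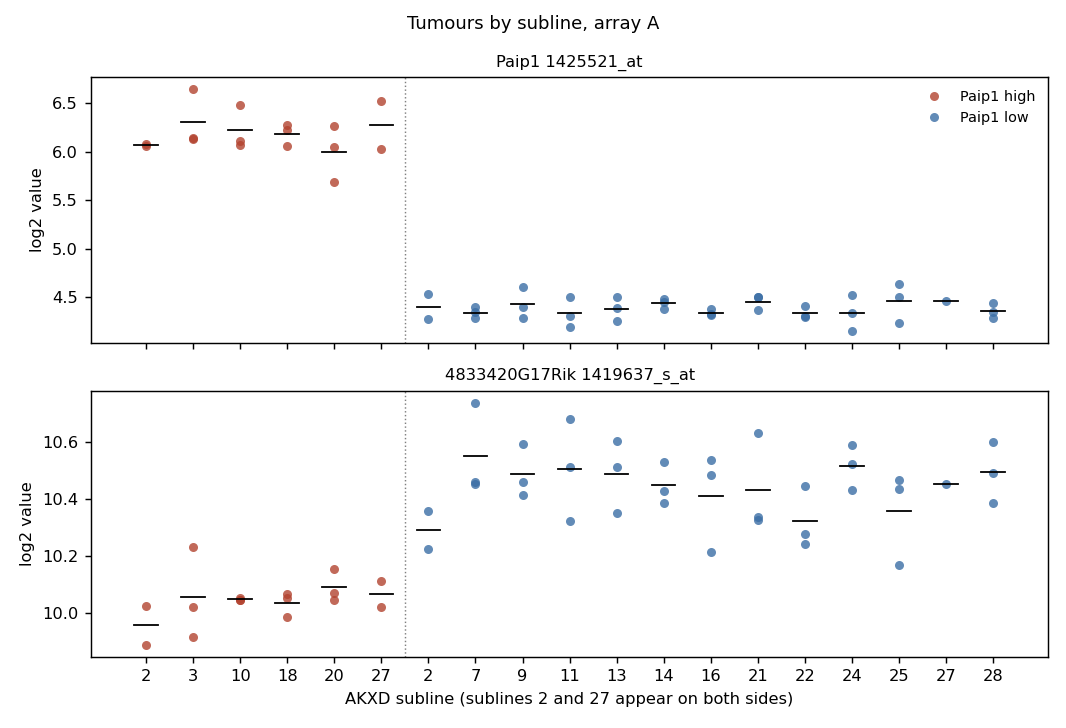
Array A log2 values of Paip1 1425521_at (top) and 4833420G17Rik 1419637_s_at (bottom) by AKXD subline, 1 point per tumour with a line at the subline mean, Paip1-high tumours left of the dotted line. Low subline means of 4833420G17Rik run from 10.29 to 10.55, above the 9.96 to 10.09 of the high side, and sublines 2 and 27 appear on both sides.

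Genes around Paip1 on chromosome 13 were set apart from the rest. Paip1 lies close to the end of the measured genes, so the 25 nearest genes on each side came to 25 before it and 13 after it on array A, and to 25 and 5 on array B. Of the 56 neighbouring probe sets on array A, 3 were called, and of 43 on array B, 1 was called, all of 4833420G17Rik. Elsewhere on chromosome 13, 0 of 721 probe sets were called on array A and 0 of 549 on array B. On other chromosomes 0 of 19572 were called on array A and 0 of 13892 on array B. The median difference was -0.02 among neighbours, -0.01 on the rest of chromosome 13 and -0.005 on other chromosomes on array A. On array B these medians were 0.01, 0.003 and 0.001.

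At an unadjusted p under 0.05, 3.86% of all probe sets passed for array A, and 1.55% for array B. Among neighbours the shares were 9 of 56 (16.1%) on array A, from 6 genes, and 5 of 43 (11.6%) on array B, from 4 genes. Without 4833420G17Rik they were 6 of 53 (11.32%) and 3 of 41 (7.32%). For the rest of chromosome 13 the shares were 5.27% and 2.37%, and for other chromosomes 3.73% and 1.49%. Neighbours were not independent of each other, and several probe sets belonged to 1 gene.

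Tmem267, a predicted membrane protein 3 genes beyond Paip1 on array A, had the largest difference of the uncalled neighbours. It had 6.03, 6.43 and 6.85 as its lowest, median and highest value in high tumours, against 5.75, 6.90 and 7.53 in low tumours. The ranges overlapped, and the low tumours of subline 2 spanned 5.75 to 7.44. Its difference was -0.44 (-0.65 to -0.24), with an adjusted p of 0.945 (limma), and within sublines 2 and 27 it was -0.05. A fit on all tumours with no block, which treats tumours of a subline as independent, called it at an adjusted p of 0.0156.

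On the other side of Paip1, Nnt encodes the mitochondrial nicotinamide nucleotide transhydrogenase, which makes NADPH. Its array A probe sets averaged 9.54 ± 0.15 against 9.74 ± 0.11 and 8.79 ± 0.20 against 9.02 ± 0.17 in high and low subline values (SD). These differences of -0.20 and -0.23 had an adjusted p of 0.945 each (limma). Its dimmer array B probe set differed by -0.02 (-0.09 to 0.06). Ccl28, a chemokine of mucosal epithelia, differed by 0.16 in 1 array A probe set and by 0.03 in the other. For Hmgcs1, an enzyme of cholesterol synthesis, 4 array A probe sets ran from -0.02 to 0.19. Depdc1b, a gene 25 places before Paip1 on array B, averaged 8.50 ± 0.12 in high and 8.30 ± 0.08 in low subline values (SD), a difference of 0.20 (0.10 to 0.30) with an adjusted p of 0.9998 (limma). None of these was called.

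**Figure D4:**
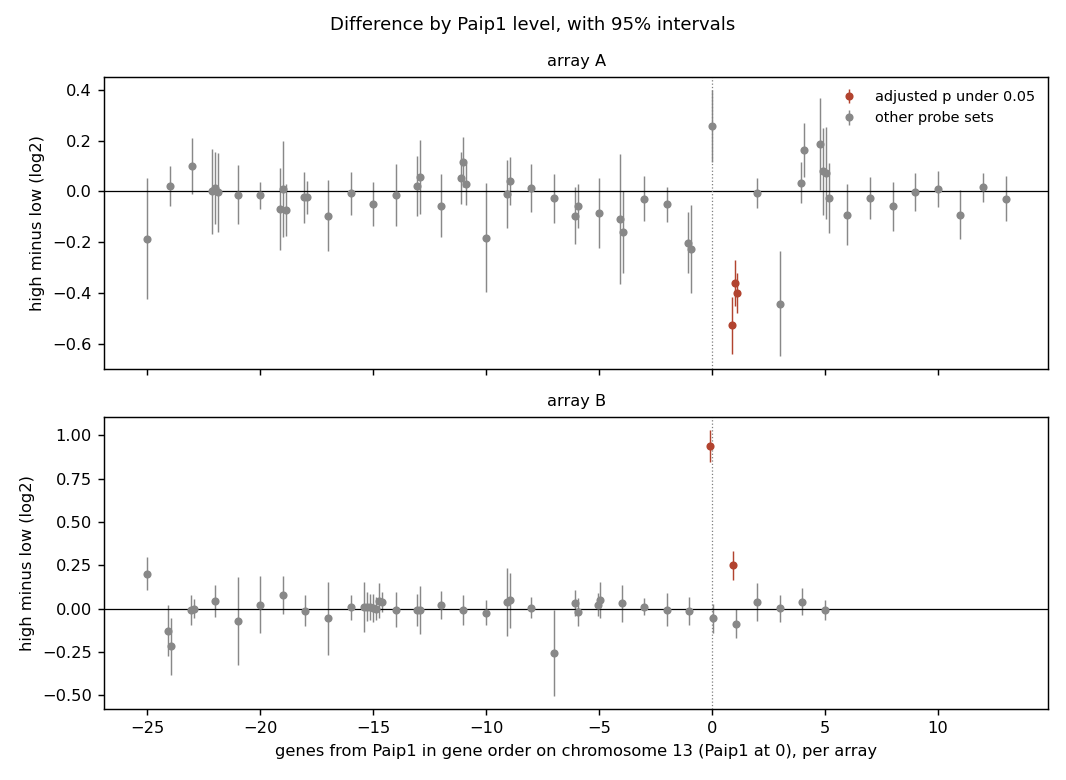
Difference in log2 value between Paip1-high and Paip1-low tumours for each probe set of Paip1 and its nearest genes in gene order on chromosome 13, with 95% intervals, for array A (top) and array B (bottom). Called probe sets lie at Paip1 (0.94 on array B) and at the gene next to it (-0.53, -0.40 and -0.36 on array A, 0.25 on array B), and the axis counts genes, not bases.

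Genes outside chromosome 13 gave no call on array A (0 of 19572 placed probe sets, with 731 at an unadjusted p under 0.05) or on array B (0 of 13892, with 207). The smallest p-values on array A among genes higher in high tumours were those of Dennd6a, an exchange factor for Rab proteins (0.13), Cutal (0.21), Edem2 of endoplasmic reticulum-associated degradation (0.14) and Foxi1, a transcription factor of ion-transporting epithelial cells (0.33). Next came Rpgrip1 (0.28), the kinase Tnk2 (0.18), mitochondrial Acss1 (0.14), the CMP-sialic acid transporter Slc35a1 (0.15), the protease cathepsin E, Ctse (0.46), and Creg1 (0.10). Values in brackets are differences in log2 units, and each had an adjusted p of 0.945 (limma).

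Among genes lower in high tumours the smallest p-values on array A were those of Eef1akmt1, a methyltransferase for a translation elongation factor (-0.13), Ank1, an ankyrin of the membrane skeleton (-0.11), and Hmox1, the inducible heme oxygenase (-0.27). Hmox1 averaged 7.79 ± 0.11 in high and 8.06 ± 0.16 in low subline values (SD). The remaining 7 were Nrip3 (-0.14), Scara5 (-0.11), the RNA methyltransferase Trdmt1 (-0.13), glutamate decarboxylase, Gad1 (-0.16), mitochondrial elongation factor Tufm (-0.11), Khdc1b (-0.13) and the opioid precursor Penk (-0.22). None was called, with an adjusted p of 0.945 each (limma).

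On array B the uncalled genes of smallest p outside chromosome 13 included Gm10044 (0.16), Dixdc1, a Wnt pathway protein (0.23), the phospholipase Plch2 (0.10) and Mfsd11 (0.09) on the higher side. On the lower side they were Tia1 (-0.58), Ttc39b (-0.20), the nuclear receptor coactivator Ncoa2 (-0.13), the kinase Camk4 (-0.12) and Sltm (-0.13). Tia1, which binds RNA and assembles into stress granules, averaged 6.14 ± 0.28 in high and 6.71 ± 0.42 in low subline values (SD), with an interval of -0.93 to -0.23. Each of these had an adjusted p of 0.9998 (limma), and among them only Tia1 was called by the fit without a block (adjusted p of 0.0468).

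Partners of Paip1 in translation were examined as a list of initiation and poly(A)-binding factors, without Paip1 itself. Its 28 measured genes were covered by 67 array A and 21 array B probe sets, of which 0 were called and 0 reached an unadjusted p under 0.05. Over all probe sets, 0.0133% were called and 3.86% reached that p on array A, against 0.00888% and 1.55% on array B, so 0 calls in a list of this size does not set it apart. Their median difference was 0.01 on array A and -0.02 on array B, against -0.01 and -0.00023 for all probe sets. Differences spanned -0.07 to 0.11 for array A probe sets, and -0.09 to 0.06 for those of array B. The members with the smallest p were the scaffold Eif4g3 (-0.07), the cap-binding inhibitor Eif4ebp2 (0.11) and Paip2b (0.06). Paip2b averaged 11.01 ± 0.07 in high and 10.96 ± 0.05 in low subline values (SD).

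The eIF3 complex, which Paip1 binds, was measured by 26 probe sets of 11 genes on array A, with 0 called and a median difference of 0.01. Eif3e (-0.06), Eif3a (0.05) and Eif3m (0.05) had the smallest p. Among deadenylation and decay genes 0 of 45 probe sets were called on array A and 0 of 26 on array B, with medians of 0.02 and 0.001, and 1 of 45 (2.22%) and 0 of 26 reached an unadjusted p under 0.05. The deadenylase subunit Pan2 differed by 0.14 (0.03 to 0.24), the subunit Cnot11 of the CCR4-NOT complex by -0.09 and the exonuclease Xrn1 by -0.10. Cytosolic ribosomal proteins had 0 of 74 array A probe sets called and a median of -0.01, led by Rps24 (-0.11), Rpl35 (-0.08) and Rpl7 (-0.04).

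Cell cycle genes had 0 of 48 array A probe sets called and a median of 0.04, with 2 (4.17%) at an unadjusted p under 0.05, both lower. Tyms stood at -0.09, Bub1 at -0.07 and Rrm2 at 0.14. The 2 lower probe sets, of Tyms and Bub1, were dim. Bub1 averaged 4.55 in high and 4.62 in low subline values, within the range of the bacterial controls given above. Tyms averaged 5.06 and 5.15, little above them. Interferon-stimulated genes had 0 of 21 called on array A and a median of -0.01, with Cxcl10 at -0.06 and Stat2 at 0.08. Array B probe sets of this list were not called either (0 of 4), with Ddx58 at -0.04. An absent call does not show that these genes were equal, and the intervals of single probe sets reached 0.53 for initiation factors and 0.63 for decay genes on array A.

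**Figure D5:**
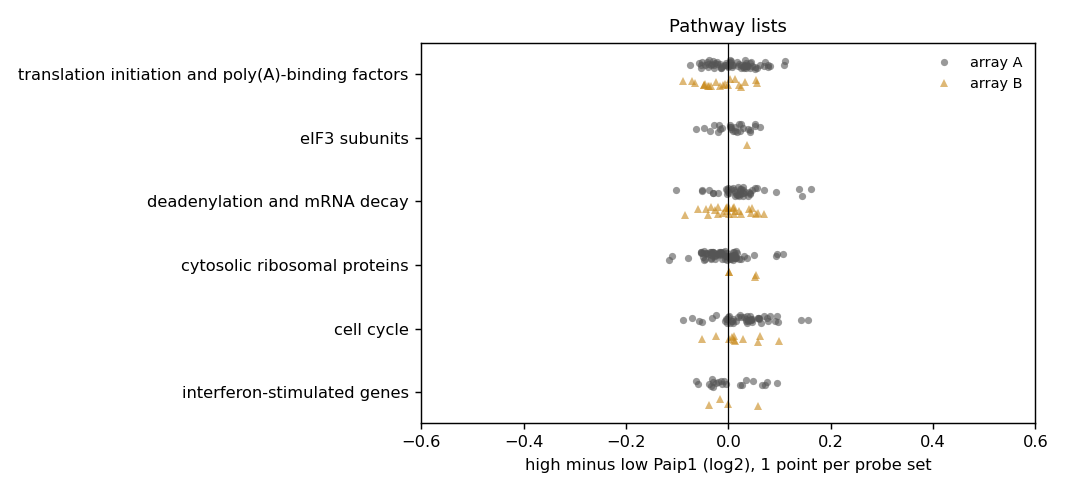
Difference in log2 value between Paip1-high and Paip1-low tumours for each probe set of 6 gene lists, array A (circles) and array B (triangles). All points lie between -0.12 and 0.16, and none was called.

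The tumours expressed epithelial keratins at high level in both groups. Krt8 had a median of 12.63 in high and 12.59 in low tumours, and Epcam one of 13.13 in both. None of the 11 cell type lists held a called probe set. List scores, each the mean over a list's genes of the centred log2 value, overlapped between the groups for every list: the adipocyte score ran from -1.43 to 1.71 in high and from -1.0003 to 1.78 in low tumours, the skeletal muscle score from -2.16 to 1.95 and from -2.20 to 2.50, and the macrophage score from -0.55 to 0.36 and from -0.82 to 0.73. Over single tumours, the largest difference between median scores was that of milk proteins, 0.23 in high and -0.18 in low tumours. Milk protein scores ranged from -1.44 to 1.62 and from -2.57 to 1.74. With subline values the order was different. The median difference over array A probe sets was 0.05 for milk proteins (-0.33 to 0.23), -0.14 for adipocytes (-0.55 to -0.04) and -0.19 for skeletal muscle (-0.39 to 0.02). The part of milk proteins in the results was not tested. For macrophages the median scores were -0.10 in high and 0.05 in low tumours. Composition scores used as covariates were those of adipocytes, skeletal muscle, T cells, and B and plasma cells, without milk proteins or macrophages. With them the 3 array A calls of 4833420G17Rik remained, and its array B call was lost (adjusted p of 0.9986, limma). In bulk tumour RNA, fewer cells of a type and less RNA per cell cannot be told apart.

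Comparing levels only inside sublines 2 and 27 gave 5 calls among 22625 probe sets on array A (0.0221%) and 1 among 22511 on array B (0.00444%), all on chromosome 17. They were chosen after their values were seen. Of these, 4 were probe sets of H2-D1, a class I antigen-presenting molecule, and 1 of H2-Ea, a class II chain. These belong to a multigene family whose near-identical members can share probes, so their gene names are uncertain. H2-D1 1450170_x_at had 5.58 and 5.54 in the high tumours of subline 2, against 9.25 and 9.18 in its low tumours. In subline 27 it had 5.63 and 5.47 in the high tumours, against 10.06 in the low tumour. Its adjusted p was 0.000339 (limma).

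The other 3 H2-D1 probe sets went the opposite way, by 3.89, 2.98 and 2.53 log2 units. H2-Ea 1422892_s_at had 9.61, 9.44, 9.60 and 9.17 in the 4 high tumours, against 6.91, 6.58 and 7.30 in the 3 low tumours. Vps52, a subunit of a vesicle tethering complex, was lower by 1.05 in 1447894_x_at, a call that was lost without subline 27, after median centring and with a replicate block. Across all sublines the same probe sets differed by -0.94 to 0.81 and none was called. Without sublines 2 and 27 the comparison across sublines gave the same 3 calls on array A. On array B it gave 1 call, Paip1 1441955_s_at, and the call of 4833420G17Rik 1430220_at was lost.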

How the data were processed

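Messenger RNA of 56 tumours was measured on MOE430A and MOE430B arrays. The deposited log2 values were made by the authors with RMA, per the submitters' processing notes, with no version or genome build named there. Precision is limited by how many arrays there were. Leaving out 64 control probe sets per array gave 22626 and 22511. Symbols came from the platform annotation, updated through RefSeq (GRCm38.p6), which also gave gene order: 1 symbol was found for 20380 probe sets of array A and for 14661 of array B.

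Tumours were split at 5.28 for 1425521_at, which was shown and not tested. Values were averaged to 1 per subline and level, giving 6 high and 13 low values, and compared with limma 3.58.1 in R 4.3.3 (lmFit, eBayes, two-sided), with Benjamini-Hochberg adjustment over all probe sets of an array. Sublines 2 and 27 each gave 1 high and 1 low value, and this fit treated all values as independent, without pairing. A second fit used the 7 tumours of sublines 2 and 27 with subline as a block. Labels call tumours of a subline biological replicates. The members, lists and tests were chosen with earlier results of these data known. Named genes were all Paip1 probe sets, called chromosome 13 genes, the 10 (array A) or 5 (array B) other genes of smallest p in each direction, and 3 per pathway list; Tmem267, Nnt, Ccl28, Hmgcs1 and Depdc1b were added after their values were seen. One array B gene of this rule is not reported here. A list score is the mean over genes of the centred log2 value. On simulated data the array A fit recovered 93% of 100 changes of 0.5 and 100% of 100 changes of 1. Among its 22625 probe sets there were 10 false calls. The array B fit recovered 99% and 100% among 22511, with 11 false calls. Simulated noise was independent between probe sets, and these changes were planted together, which loosens the cut set by the adjustment. These shares therefore do not give the recovery in the tumours. There, 28 array A probe sets differed by more than 0.5, and among them only 1419635_at was called. Alternatives were other blocks, weights, normalizations, priors, covariates, filters, levels and left-out sublines or replicates. Plots used Python 3.11.15 with matplotlib 3.10.9.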

Additional observations from a re-analysis of the deposited data

How the results depend on the processing

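The 3 array A calls of 4833420G17Rik remained under all alternatives except 2. With the dimmer part of the probe sets left out, 2 of them remained, and 1419636_at was removed by that filter before the test. With all 56 tumours, 0 remained, with 565 probe sets at an unadjusted p under 0.05. That alternative puts tumour 3 of subline 23, whose array A had a median correlation of 0.222, on the high side. Array B of the same tumour had a median correlation of 0.989. There its Paip1 1441955_s_at value was 4.77, inside the range of the low tumours (4.53 to 5.05). On array B the 2 calls became 1 without sublines 2 and 27, after quantile normalization, after median centring and with composition covariates. They also became 1 without tumour 2 of subline 20 (chosen after seeing the data). The call that remained was Paip1 1441955_s_at. Without the dimmer part 0 were left, because that filter removed both called probe sets before the test. Leaving out single sublines or replicates gave 3 calls each time on array A and 1 to 2 on array B; the array B count was 1 without any of sublines 2, 3, 7, 9, 10, 13, 14, 16, 18, 20, 21, 22, 24, 25 or 27 and without any of replicates 1, 2 or 3. Windows of 10 or 50 genes could not change the neighbour counts of 3 and 1, because the only called neighbour lies next to Paip1 and no gene farther away was called.

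With a replicate block added to a random block for subline, 3 and 2 probe sets were called. Deviations of same-numbered tumours correlated at a median of 0.0025 on array A (-0.59 to 0.48), against -0.003 for other pairs. Whether same-numbered tumours shared more than a number cannot be told from these medians. Within sublines 2 and 27 the replicate block gave 27 calls on array A and 0 on array B. Leaving out subline 2 or subline 27 gave 342 or 3 calls on array A and 542 or 0 on array B, and median centring gave 0 on array B. The cause of these changes in count was not tested.

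With all 56 tumours these uncalled differences changed sign: Edem2 to -0.13, Foxi1 to -0.17, Tnk2 to -0.35, Slc35a1 to -0.058, Creg1 to -0.069, Eif4ebp2 to -0.39, Paip2b to -0.21, Eif3a to -0.35, Eef1akmt1 to 0.058, Nrip3 to 0.14, Scara5 to 0.043, Trdmt1 to 0.32, Gad1 to 0.091, Eif3e to 0.40, Xrn1 to 0.23, Rps24 to 0.17, Rpl35 to 0.22, Tyms to 0.30, Bub1 to 0.50, Cxcl10 to 0.0995, Ccl28 1450217_at to -0.065 and Tmem267 to 0.023. With composition covariates Eif3m became -0.020. Nnt 1432608_at became 0.017 without sublines 2 and 27 and ran from -0.044 to 0.0021 with single sublines or replicates left out. The 4 array A differences of Hmgcs1, none called, changed sign as well: 1433443_a_at to -0.083 and 1433445_x_at to -0.14 with all 56 tumours, and 1433445_x_at to -0.011 without sublines 2 and 27. With single sublines or replicates left out, Hmgcs1 1433444_at ran from -0.0045 to 0.13, 1433445_x_at from -0.017 to 0.16 and 1433446_at from -0.049 to 0.0088.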
